A study of Mus musculus with 6 samples.

Results

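The tibialis anterior, a fast muscle at the front of the lower leg, was compared between mice lacking the microRNA miR-214 (KO) and wild-type (WT) mice on 1 bead array each. These are 2 of the 6 arrays of a series that also holds WT and KO hearts at postnatal day 14 (P14) and at 8 weeks. The muscle arrays were chosen by their labels, and a probe was kept where its detection p, the chance of such a signal from negative control probes, was under 0.01 on at least 1 of the 2. This kept 15790 of 45281 probes, read here as 9141 named genes with 1 value each, that of the brightest probe. Both muscle groups are labelled as 8 weeks old, male and of mixed strain background, and the labels give no difference between them other than the miR-214 genotype. The KO is given without a tissue or driver line, and the knockout allele is not described further in the labels. Each array carries Cy3-labelled material pooled from 3 mice, with no replicate, so no difference below has a replicate check and no test was made. Levels are log2 intensities after background correction and quantile normalization, differences are KO minus WT in the same unit, and the error after ± is the standard error over the beads of the 2 arrays. That error covers the reading of a probe and not the spread between mice or pools.

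A microRNA guides a silencing complex to messenger RNAs that pair with its seed, the bases near its 5′ end, and loss of the microRNA releases those messages. miR-214 is cut from Dnm3os, a long RNA transcribed from the strand opposite to the Dnm3 gene, and its known targets in muscle cells and the heart include regulators of muscle cell differentiation and of calcium and cell death. The tibialis anterior is built mostly of fast fibres, which use their own isoforms of myosin, troponin and the calcium pump, with few slow fibres. The mature sequences of both arms are shown because the 3p arm is the one usually studied for these targets and because neither arm has a probe with a value here. They are from RefSeq with the build GRCm38.p6, at chr1:162223397-162223418 and chr1:162223438-162223459 on the plus strand, with the seed (bases 2 to 8) in capitals.
mmu-miR-214-5p: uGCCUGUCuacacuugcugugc
mmu-miR-214-3p: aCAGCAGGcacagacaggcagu

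The 2 muscle arrays were read to a like depth, with 14892 probes detected on the WT and 15062 on the KO array and a median of 44 beads per probe on each. Of the genes, 8346 were detected on both arrays, 466 on the KO array alone and 329 on the WT array alone. The lowest detected level was 5.21 on the WT and 5.18 on the KO array. Values of genes detected on 1 array only are given as lower bounds of the fold against the lowest detected level of the other array, or against the gene's own level there where that is higher. The tissue label was checked with 17 markers of skeletal muscle, all detected on both arrays, among them the muscle creatine kinase gene Ckm (15.07 and 15.01), skeletal actin Acta1 (14.64 and 14.54) and the fast myosin Myh4 (13.65 and 13.56). Of 11 heart markers with a probe 4 were detected, Actc1 (13.43 and 13.28), Myl4 (9.56 and 9.60) and Myh6 (5.60 and 5.97) on both arrays and Nppa on the KO array alone. The other heart markers, Myl7, Tnni3, Gata4, Tbx5, Hcn4, Ryr2 and Nkx2-5, were detected on neither muscle array. The sex label is not borne out by the arrays. Xist, which coats the inactive X chromosome, read 9.69 on the WT and 9.60 on the KO array, while the Y-linked genes Eif2s3y, Kdm5d and Uty were detected on neither. Both muscle pools carry this mismatch alike.

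Most genes differed little between the muscle pools. The median difference over all genes was -0.02, and 95% of genes lay between -0.60 and 0.99, against a median bead error of 0.10. Of all genes 46.1% were above 0 and 53.6% below 0, the shares to set beside every count of list members that follows. The lists were chosen with earlier results of these data known, so those counts are descriptions. At least 2-fold higher levels in the KO were measured for 225 genes (2.46% of genes) and at least 2-fold lower levels for 45 (0.492%). By lower bounds these counts were 148 (1.62%) and 27 (0.295%), and among genes detected on both arrays 101 (1.21%) and 21 (0.252%). Without background correction the counts were 117 and 13. The spread depended on the level, since dim probes scatter most. Among 1954 genes with a mean level under 6 the central 95% ran from -0.83 to 1.48 and 121 were at least 2-fold higher, while among 1427 genes above 10 it ran from -0.37 to 0.44, with 7 higher and 4 lower. Of 47 higher genes with other kept probes, 43 had the same sign in the mean of those probes and 34 were also past 2-fold there. For the lower genes these counts were 4 and 2 of 4. Among all 3218 genes with other kept probes, 2057 had the same sign.

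**Figure D1:**
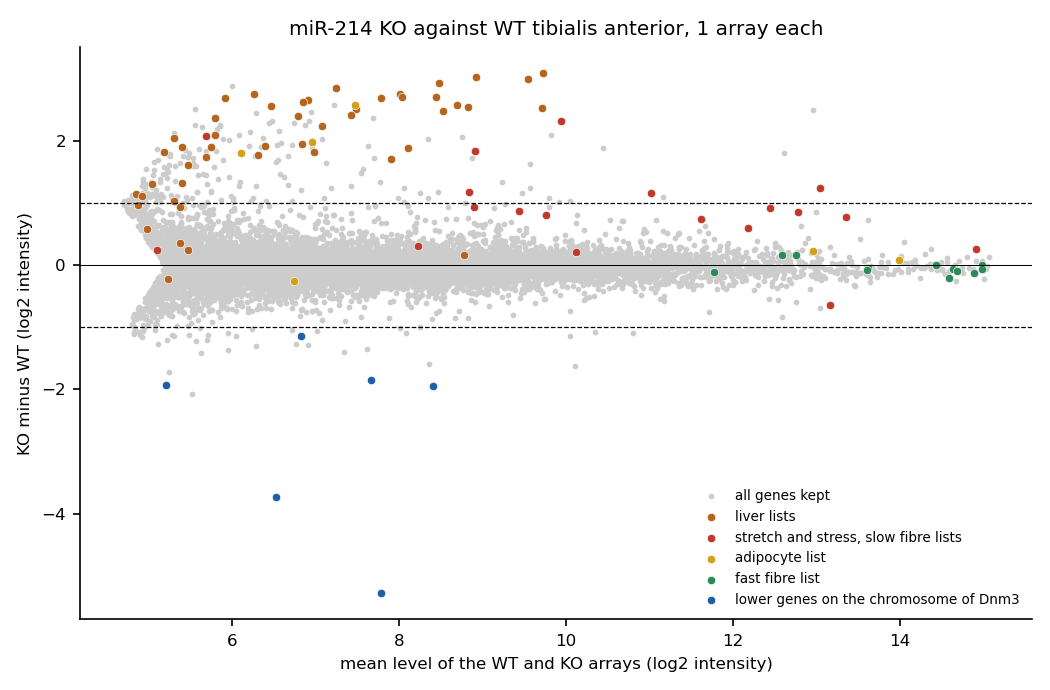
Difference between the KO and WT tibialis anterior arrays (vertical axis, log2 intensity) against the mean level of the 2 arrays (horizontal axis, log2 intensity) for 9141 genes, with dashed lines at 2-fold and coloured points for members of the named lists. Liver genes and the stretch and slow fibre genes lie above the main cloud, fast fibre genes at its centre on the right, and the 6 genes on the chromosome of Dnm3 below it. Cops8, Rpe and Gin1 are plotted at fitted values although they were not detected on the KO array.

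The transcripts that differed by the largest amounts between the pools included products of the liver. Apoa2, an apolipoprotein of high-density lipoprotein, read 8.18 on the WT and 11.27 on the KO array, higher by 3.09 ± 0.08. Mup3, a urinary pheromone carrier secreted by the liver, read 7.41 and 10.43, higher by 3.03 ± 0.08. Transthyretin, Ttr, the carrier of thyroid hormone and retinol in plasma, read 8.05 and 11.04, higher by 2.99 ± 0.07. These 3 levels stood well above the lowest detected signal on both arrays. Apoc1 and Apoc3, small apolipoproteins that act on lipoprotein lipase and remnant uptake, were higher by 2.92 ± 0.09 and 2.68 ± 0.13. The fibrinogen chain Fga (5.82 and 8.66) was higher by 2.85 ± 0.12, the mineral-binding fetuin Ahsg by 2.74 ± 0.09, the antiprotease Serpina1d by 2.70 ± 0.10 and Ambp, the precursor of bikunin, by 2.70 ± 0.09. Haptoglobin, Hp, and hemopexin, Hpx, which bind free haemoglobin and haem, were higher by 2.66 ± 0.16 and 2.62 ± 0.15.

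Across 3 lists of liver genes, chosen with the leading genes already known, members detected on the KO array alone entered by their level there, so counts over detected members are given as a description. All 24 detected plasma protein genes, 8 of them detected on the KO array alone, were above 0 (46.1% of all genes were), and 22 were at least 2-fold higher, or 20 by lower bounds. Their median was 2.45 against -0.02 over all genes. Vitronectin, Vtn, which tissues other than liver also make, was the smallest at 0.16 ± 0.07 (8.69 and 8.85). Alb and Fgb, also secreted by the liver, were detected on neither array. Of 9 detected apolipoprotein and lipoprotein genes 8 were above 0 and 7 past 2-fold, or 6 by lower bounds, with 3 detected on the KO array alone and a median of 2.55. Pon1, the paraoxonase carried on high-density lipoprotein, was detected on the KO array alone and at least 5.36-fold higher. Liver enzymes had a median of 1.81 over 15 genes, 9 of them detected on the KO array alone. That median was 1.13 with undetected levels raised to the lowest detected level and 0.67 without the detection filter. At least 2-fold higher levels were read for 12 of them, or 9 by lower bounds. Cyp2c70, of bile acid synthesis in mice, was at least 5.75-fold higher. The urea cycle genes Ass1 and Arg1 were higher by 1.82 ± 0.14 and 1.77 ± 0.17, and Cps1, detected on the KO array alone, by at least 2.19-fold. Mat1a and Gnmt of methionine metabolism were higher by 2.23 ± 0.12 and 1.94 ± 0.13 (1.03 by the other kept probe of Gnmt), whereas Hnf4a, a transcription factor of hepatocytes, read 5.35 and 5.58 and differed by 0.24 ± 0.17. The summed linear intensity of the plasma protein list was 2587 on the WT and 13123 on the KO array. The Mup and the Serpina1 genes are close copies of each other, so values of single members are uncertain. Of the 225 genes past 2-fold, 41 stand on these 3 lists and 157 on none of the lists used here. With the liver, adipocyte, brown fat and lipogenesis lists left out, 180 genes were at least 2-fold higher and 45 lower. The lists are not complete, and those 180 still include relatives of their members, such as Apof, Mup6, Serpina10 and Cyp2c37. Neither count therefore gives the part of the higher genes that is free of liver products. In pooled tissue, fewer cells of a type and less RNA per cell cannot be told apart, and the part of RNA from other tissue in these values was not tested.

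In the hearts, the same plasma protein list was largely undetected, with 8 members at P14 (median 0.35) and 9 in the adult (median -0.13). Apolipoprotein and lipoprotein genes had 4 detected members at each age, the median being 0.16 at P14 and 1.04 at 8 weeks, and liver enzymes had 3 (median 0.22) and 5 (median 0.56, all 5 above 0). Apoa2 was detected on 1 array of each heart pair, the KO, and was higher there by at least 0.34 at P14 and 1.22 in the adult on the log2 scale, beside 3.09 in muscle. Of the muscle genes past 2-fold upwards, 1 of 98 detected at P14 (Angptl4) and 20 of 114 detected in the adult heart were also at least 2-fold higher there, counted on normalized levels without raising undetected ones. Among all genes of the muscle set, 22 of 8613 (0.255%) were that much higher at P14 and 107 of 8667 (1.23%) in the adult heart. The 20 shared genes are 18.7% of the latter, and include Apoa2, Apoc1, Hspb7, Atf3, Mt1, Hamp and Per3. In the opposite direction, 5 of the 98 were at least 2-fold lower at P14 and 2 of the 114 in the adult heart. Over all genes of the muscle set these shares were 0.522% and 0.415%. Whether muscle and heart differ was not tested.

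Adipose genes were higher in the KO for a few strong members and not for the rest of the list. Adipoq, the fat cell hormone adiponectin, read 6.18 and 8.76 and was higher by 2.58 ± 0.12. Leptin, Lep, read 5.96 and 7.95 and was higher by 1.99 ± 0.10. Cidec, a lipid droplet protein, was detected on the KO array alone and at least 3.45-fold higher. The remaining detected members lay near 0, with Plin4 at 0.23 ± 0.04, Car3 at 0.08 ± 0.04 and Pparg, the regulator of fat cell differentiation, at -0.26 ± 0.14. Plin1, Fabp4, Retn, Pck1, Lipe and Cebpa, which fat cells also express, were detected on neither array. The list's median of 1.02 over 6 genes therefore rests on 3 of them, and became 0.23 over genes detected on both arrays and 0.09 without the detection filter. Scd1, the desaturase of fatty acid synthesis, read 8.78 and 10.87, higher by 2.09 ± 0.06, while Me1, which supplies that synthesis with NADPH, read 8.30 and 7.45, lower at -0.86 ± 0.10. The lipogenesis list as a whole had a median of 0.03. Ucp1 of brown fat was detected on neither array.

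**Figure D2:**
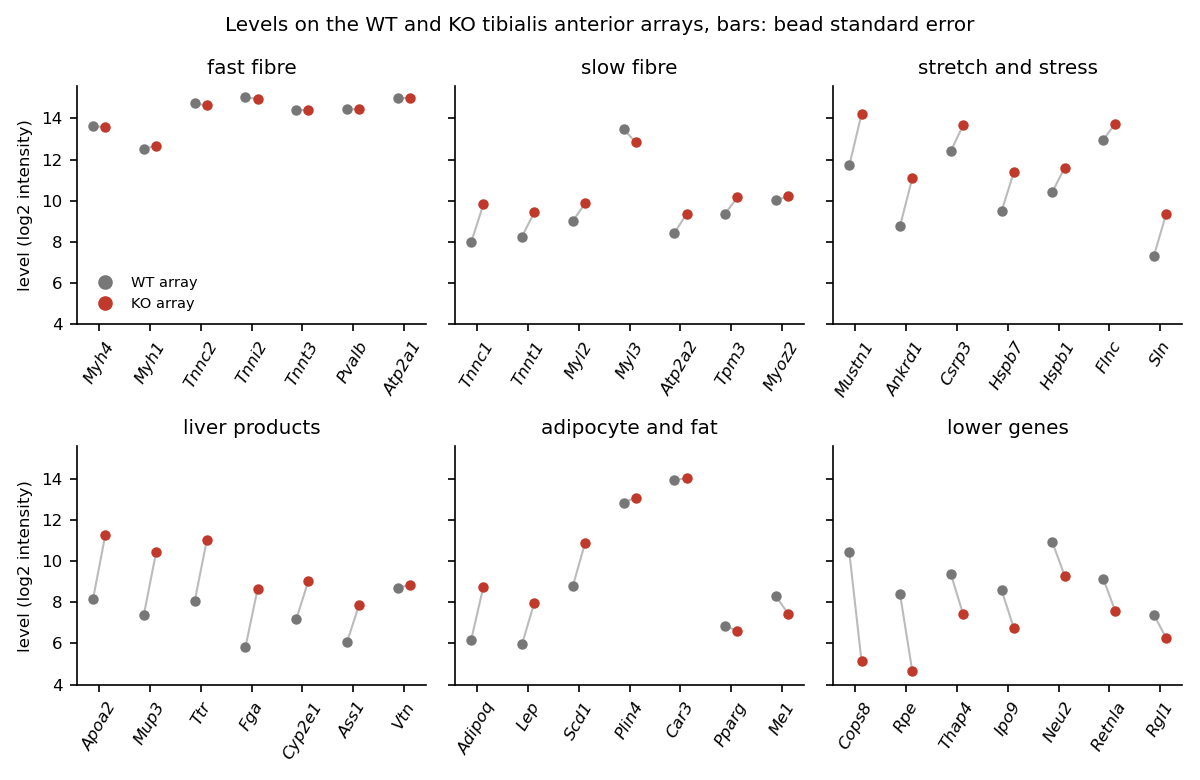
Levels (log2 intensity) of selected genes on the WT (grey) and KO (red) tibialis anterior arrays, with the bead standard error as bars, most of them shorter than the symbol. Fast fibre genes overlap, slow fibre genes other than Myl3 and the stretch and stress genes are higher on the KO array, and Cops8 and Rpe are at levels not detected there. Levels of different genes come from different probes and cannot be ranked against each other.

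The contractile programme of the muscle was nearly the same for fast fibre genes. All 13 detected members were within -0.21 and 0.17, with a median of -0.06 and none past 2-fold. The fast troponins Tnnt3 (14.44 and 14.44), Tnni2 (15.02 and 14.96) and Tnnc2 (14.73 and 14.64) differed by 0.00 ± 0.04, -0.06 ± 0.05 and -0.10 ± 0.05. The fast calcium pump Atp2a1 read 14.99 on both arrays, and the calcium buffer Pvalb 14.45 on both. These probes are near the top of the intensity range, where the scale may be compressed. Myl1, a fast myosin light chain, had the largest difference at -0.21 ± 0.06.

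Slow fibre genes were mostly higher in the KO muscle. Of 10 detected members 9 were above 0 (46.1% of all genes were) and 3 at least 2-fold higher (2.46% of all genes were), with a median of 0.83. Slow and cardiac troponin C, Tnnc1, read 7.99 and 9.83, higher by 1.84 ± 0.07. The slow troponin T gene Tnnt1 read 8.26 and 9.43, higher by 1.17 ± 0.07, and the slow myosin light chain Myl2 was higher by 0.87 ± 0.07. Tpm3, slow tropomyosin, was higher by 0.80 ± 0.05, with its 5 other kept probes between -0.12 and 1.30. The slow calcium pump Atp2a2 was higher by 0.94 ± 0.09 by its brightest probe, while its 2 other kept probes gave -0.08 and 1.04. Csrp3 (12.43 and 13.67, higher by 1.24 ± 0.05) and Ankrd2 (higher by 0.75 ± 0.06) are on this list and on the stretch list. Myl3, a myosin light chain shared by slow fibres and the ventricle, had a value below 0, with 13.48 and 12.85, at -0.63 ± 0.05. The slow myosin heavy chain Myh7 and slow troponin I, Tnni1, were detected on neither array. Sarcolipin, Sln, which binds and restrains the calcium pump, read 7.33 and 9.36 and was higher by 2.03 ± 0.07. It stood apart from its list, since the 20 genes of calcium release and uptake had a median of -0.09, with 7 above 0. Jph2, a protein of the junction between membrane systems, had the lowest value in it at -0.34 ± 0.06, and the calcium channel subunit Cacng1 was higher by 0.51 ± 0.07.

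Genes known to respond to stretch or load in striated muscle were higher in the KO. All 11 detected members of the list were above 0 (46.1% of all genes were), with a median of 0.85. At least 2-fold higher were 4 of them, Hamp included (2.46% of all genes were). The list was chosen with earlier results of these data known, so these counts are a description. Of the 11, 9 were detected on both arrays. Hamp and Nppa were detected on the KO array alone and entered by their level there, so their direction adds little. Ankrd1, a titin-bound repressor that stretched muscle induces, read 8.78 and 11.10, higher by 2.32 ± 0.07, and its other kept probe gave 2.50. The small heat shock protein gene Hspb1 read 10.44 and 11.60, higher by 1.16 ± 0.14. Xirp2, an actin-binding protein of fibre junctions, was higher by 0.92 ± 0.06 (11.99 and 12.90), Cryab, a chaperone of desmin, by 0.85 ± 0.11 (12.35 and 13.20) and Flnc, muscle filamin, by 0.78 ± 0.04 (12.97 and 13.75). Hamp, the iron hormone hepcidin that the liver makes, was detected on the KO array alone and at least 2.84-fold higher. Its close copy Hamp2, which no list holds, read 5.32 and 7.64, so the share of each is uncertain. In the heat shock list Hspb7, a small heat shock protein of muscle, read 9.50 and 11.39, higher by 1.89 ± 0.09, with 11 of 18 members above 0 and a median of 0.29. Bag3, the cochaperone that works with these proteins, had a value of -0.10 ± 0.05, and Hspa8 of -0.11 ± 0.06, both chosen after their values were seen. Among 26 genes of the Z disc and titin filament 15 were above 0 and the median was 0.05. Klhl40, a stabiliser of thin filament proteins, was higher by 1.10 ± 0.05 and Pdlim3, a Z disc adaptor, by 0.72 ± 0.04, while titin itself, Ttn, had a value of -0.14 ± 0.04.

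Several genes past 2-fold that no list holds are named here, many but not all of them products of muscle or of repairing tissue. They were chosen after their values were seen and do not represent the unlisted higher genes. Those also include many relatives of liver list members, such as Apom (higher by 2.47 ± 0.12), Mup6 (higher by 2.28 ± 0.17), Apof and Cyp2c37. Mustn1, a small nuclear protein of regenerating muscle, read 11.71 and 14.21, higher by 2.50 ± 0.05, with 2.57 from its other probe. Tubb6, a beta-tubulin of regenerating fibres, read 7.73 and 9.79, higher by 2.05 ± 0.08. Csrnp1, a cysteine and serine-rich nuclear protein, read 5.76 and 8.08, higher by 2.32 ± 0.14, beside 0.01 at P14 and 1.85 in the adult heart. Each of these genes differed by far more than its bead error. Tnfrsf12a, the receptor for the cytokine TWEAK, was higher by 1.72 ± 0.10 (8.02 and 9.74), the uridine kinase Uck2 by 1.62 ± 0.06 (8.75 and 10.38), and Myom3, an M band protein of slow and intermediate fibres, by 1.15 ± 0.06 (8.89 and 10.05). The acetylcholine receptor subunit Chrna9 was higher by 1.42 ± 0.13 (5.91 and 7.33) and Igfn1, a partner of filamin in muscle, by 1.27 ± 0.15 (6.78 and 8.06). Tead4, a transcription factor of muscle cells, was at least 2.13-fold higher by its brightest probe while its other probe gave -0.04.

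Promoters are shown for 3 muscle genes and 1 liver gene with large differences, since members of both groups differed together. They run from 250 bases before to 50 bases after the annotated start in RefSeq (GRCm38.p6), written 5′ to 3′ along the gene. A set of 3 motifs were searched on both strands, after the values were seen: CATTCC, the core of the MCAT element read by TEAD factors, GTTAAT, a core site of HNF1 factors of the liver, and TGANTCA, the site of AP-1 factors. None of these motifs contains another. Capitals mark a match, on either strand, of CATTCC in Ankrd1 (chr19:36119795-36120094, minus strand), Tnnc1 (chr14:31208062-31208361, plus strand) and Mustn1 (chr14:30879007-30879306, plus strand), and of GTTAAT in Fga (chr3:83025903-83026202, plus strand). The Fga promoter also holds CATTCC on the opposite strand, which is not capitalised here.
Ankrd1: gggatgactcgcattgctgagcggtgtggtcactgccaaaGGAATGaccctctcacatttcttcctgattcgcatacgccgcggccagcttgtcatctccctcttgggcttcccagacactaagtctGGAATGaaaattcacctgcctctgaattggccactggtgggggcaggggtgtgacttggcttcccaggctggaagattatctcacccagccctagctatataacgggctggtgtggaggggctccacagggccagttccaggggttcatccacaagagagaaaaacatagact
Tnnc1: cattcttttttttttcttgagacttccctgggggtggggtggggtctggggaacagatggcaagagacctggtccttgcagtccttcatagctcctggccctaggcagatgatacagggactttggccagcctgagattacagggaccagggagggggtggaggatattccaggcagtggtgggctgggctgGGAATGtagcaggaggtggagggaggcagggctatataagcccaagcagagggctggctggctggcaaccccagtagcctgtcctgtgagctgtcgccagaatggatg
Mustn1: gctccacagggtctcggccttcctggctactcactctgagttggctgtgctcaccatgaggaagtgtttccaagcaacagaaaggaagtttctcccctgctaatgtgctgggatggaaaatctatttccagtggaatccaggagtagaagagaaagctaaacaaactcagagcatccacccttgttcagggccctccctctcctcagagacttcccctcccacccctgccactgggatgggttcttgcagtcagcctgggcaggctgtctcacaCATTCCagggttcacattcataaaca
Fga: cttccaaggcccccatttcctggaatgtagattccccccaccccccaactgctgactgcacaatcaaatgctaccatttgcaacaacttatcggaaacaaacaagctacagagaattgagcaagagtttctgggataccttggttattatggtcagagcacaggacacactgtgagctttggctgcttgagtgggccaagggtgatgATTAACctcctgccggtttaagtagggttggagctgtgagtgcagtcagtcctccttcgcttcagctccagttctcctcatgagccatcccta

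Of 32851 promoters 14.7% hold CATTCC, 7.10% GTTAAT and 7.81% TGANTCA. Among the muscle, stress and heat shock list genes at least 2-fold higher, 8 of 9 had a promoter in the table. Of these 4 hold CATTCC (Ankrd1, Hspb1, Hspb7 and Tnnc1), 1 GTTAAT (Csrp3) and 2 TGANTCA (Klhl40 and Hamp). Hamp, the liver hormone gene, is counted in this group because the stretch list holds it. Of 41 liver list genes past 2-fold, 30 had a promoter, and 4 hold CATTCC, 7 GTTAAT and 7 TGANTCA. Those 7 with GTTAAT are Fga, Itih1 and the 5 close copies of Serpina1, which share sequence. A match of letters is a description and no evidence of binding.

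**Figure D3:**
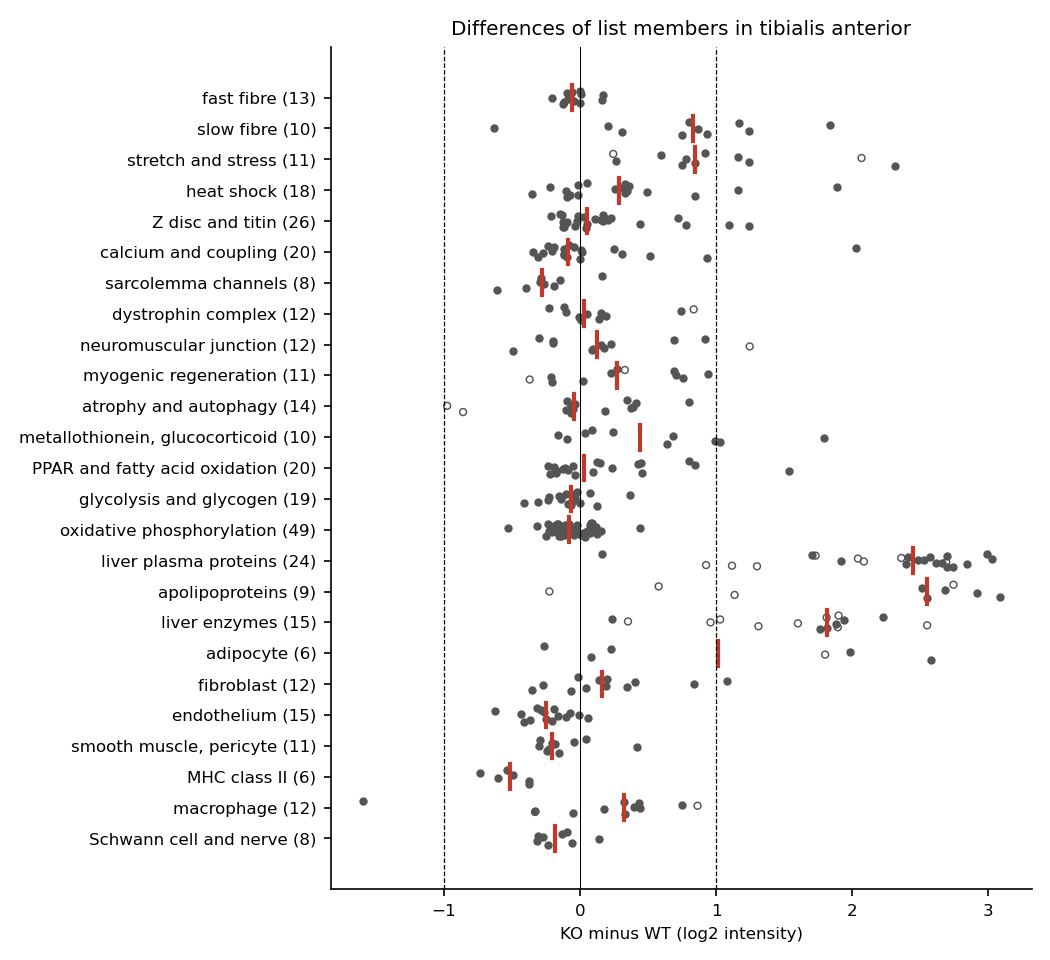
Differences between KO and WT tibialis anterior (horizontal axis, log2 intensity) of the detected members of 25 gene lists, with the number detected in brackets. Filled points are genes detected on both arrays, open points genes detected on 1, red bars list medians and dashed lines 2-fold. The slow fibre, stretch, liver and adipocyte medians lie to the right of 0.8, and MHC class II has the lowest median at -0.52.

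Genes of nerve contact and muscle regeneration gave mixed values. Of 12 detected genes of the neuromuscular junction and its loss 8 were above 0, with a median of 0.12. Ncam1, an adhesion molecule that denervated fibres display, read 6.65 and 7.57, higher by 0.92 ± 0.12 (its 2 other kept probes gave 0.11 and 0.60), and Myog, the transcription factor myogenin, read 6.19 and 6.88, higher by 0.69 ± 0.13. The fetal receptor subunit Chrng was detected on the KO array alone, at least 1.36-fold higher. Other members that denervation is known to raise differed by less. The receptor subunit Chrna1 had 0.09 ± 0.07 and Gadd45a 0.23 ± 0.07, both chosen after their values were seen. The other kept probes of Chrna1 and Gadd45a gave 0.24 and 0.37. The acetylcholinesterase gene Ache read 6.52 and 6.03, at -0.49 ± 0.19. In the regeneration list the neonatal myosin Myh8 read 9.33 and 10.27, higher by 0.94 ± 0.06, the laminin receptor Itga7 was higher by 0.76 ± 0.08 and the myogenic factor Myf6 by 0.71 ± 0.06. Pax7, the marker of satellite cells, and Myf5 were detected on neither array. The list's median was 0.27 over 11 genes. Among atrophy genes the ubiquitin ligase Trim63 read 9.73 and 10.53, higher by 0.80 ± 0.08, while its partner Fbxo32 read 10.40 and 10.35, at -0.05 ± 0.07. The 14 detected atrophy and autophagy genes had a median of -0.04, and Klf15, a glucocorticoid target, was at least 1.57-fold lower.

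Fuel metabolism differed for single genes and not for its pathways. Angptl4, a secreted inhibitor of lipoprotein lipase, read 6.80 and 8.34, higher by 1.54 ± 0.11. Pdk4, the kinase that restrains pyruvate oxidation, read 12.58 and 13.42, higher by 0.85 ± 0.04, and the mitochondrial carrier Ucp3 read 9.33 and 10.13, higher by 0.80 ± 0.08. All 3 are known targets of PPAR receptors. The other enzymes of fatty acid oxidation were near 0, so the 20 genes of the list had a median of 0.03, with 10 above 0. Glycolysis and glycogen genes had a median of -0.06 over 19, oxidative phosphorylation subunits of -0.08 over 49 with 16 above 0, and genes of the citric acid cycle and mitochondrial regulators of -0.10 over 18. The complex I subunit Ndufb10 had -0.53 ± 0.08 by its brightest probe and 0.96 by its other probe, and Ndufb5 of the same complex 0.44 ± 0.08. Creatine and purine genes had a median of -0.05, with the red cell form of AMP deaminase, Ampd3, higher by 0.68 ± 0.07 (7.86 and 8.54).

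Metal and glucocorticoid responsive genes were mostly higher, with 8 of 10 above 0 (46.1% of all genes were) and a median of 0.44. The metallothionein Mt1 read 11.72 and 13.52, higher by 1.79 ± 0.04. Ddit4, an inhibitor of mTOR signalling, was higher by 1.03 ± 0.06 (9.53 and 10.56), and Fkbp5, a cochaperone of the glucocorticoid receptor, by 0.99 ± 0.09 (8.29 and 9.28). Tsc22d3, another glucocorticoid target, had 0.25 ± 0.06, with its 2 other kept probes at -0.11 and 0.55. Pik3r1 had the lowest value of the list at -0.16, and the glucocorticoid responsive genes Sgk1 (13.18 and 13.21) and Klf9 (12.42 and 12.32) hardly differed. Klf15, the glucocorticoid target named with the atrophy genes, was lower. Medians of the metal and glucocorticoid list in the P14 and adult hearts were 0.40 and 0.54. Of the immediate early genes Atf3 read 5.74 and 7.99, higher by 2.25 ± 0.14, and Egr1 7.81 and 8.89, higher by 1.08 ± 0.07, yet Fos (5.81 and 5.78) and Jun (7.76 and 7.83) differed by less than their bead error. The median of those 11 genes was 0.06. Atf3 differed by -1.37 in the P14 heart and by 1.05 in the adult heart. Genes of the amino acid stress response had a median of -0.01. Within that list the serine synthesis gene Psat1 was higher by 1.41 ± 0.18 (5.26 and 6.67), and Chac1, which degrades glutathione, lower at -1.09 ± 0.05 (11.35 and 10.26). The clock gene Per3 was at least 2.19-fold higher, and the list of clock genes had a median of -0.14.

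Cell types that share the muscle with its fibres differed in several directions by small amounts. Endothelial genes had a median of -0.25, with 14 of 15 below 0 (53.6% of all genes were), from Sox18, a transcription factor of vessels, at -0.62 ± 0.12 to Eng at 0.06 ± 0.14. Pecam1, the junction protein of endothelium, read 9.18 and 8.74, at -0.44 ± 0.07, with its 2 other kept probes at -0.46 and 0.03. Smooth muscle and pericyte genes had a median of -0.21, with Rgs5 at -0.30 ± 0.05. Schwann cell and nerve genes had a median of -0.18, with 7 of 8 below 0. None of the members of these 3 lists was past 2-fold. Channels and pumps of the fibre membrane had a median of -0.28, with 7 of 8 below 0, led by the water channel Aqp4 (9.94 and 9.33, at -0.61 ± 0.05) and the sodium pump subunit Atp1b1 (12.46 and 12.06, at -0.40 ± 0.04). Genes of the dystrophin complex had a median of 0.03. Of 3 detected red cell genes 2 were below 0, the haemoglobin gene Hba-a1 (13.05 and 12.45, at -0.60 ± 0.04) and Alas2, the first enzyme of haem synthesis in red cells (6.52 and 5.84, at -0.68 ± 0.21). Bpgm, which makes bisphosphoglycerate in red cells, had 0.11 ± 0.20 (5.33 and 5.45) by its brightest probe and -0.87 by its other kept probe. The haemoglobin genes Hbb-bs and Hbb-bt, which the list does not hold, had -0.69 ± 0.04 and -0.57 ± 0.05 by their brightest probes.

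All 6 detected genes of MHC class II antigen presentation were below 0 (53.6% of all genes were), with a median of -0.52. H2-Eb1, a chain of the class II molecule, read 8.77 and 8.23, at -0.54 ± 0.10, the peptide loading gene H2-DMb1 read 6.41 and 5.67, at -0.73 ± 0.14, and the invariant chain Cd74 read 9.57 and 9.20, at -0.37 ± 0.07. In the adult heart the same 6 genes were all above 0, with a median of 0.39, and at P14 the median was -0.09. Macrophage genes in muscle had a median of 0.33, with 8 of 12 above 0. The galectin Lgals3 was higher by 0.75 ± 0.07, while Retnla, a secreted product of alternatively activated macrophages, read 9.15 and 7.56, at -1.60 ± 0.11. No lymphocyte marker was detected. Interferon response genes had a median of 0.25 over 12, led by Ifi27l2a at 1.72 ± 0.16 (6.84 and 8.55). Of the fibroblast genes 8 of 12 were above 0 with a median of 0.16, and Mfap5, a microfibril protein, was higher by 1.08 ± 0.08. Collagens split. Col8a1 was higher by 1.03 ± 0.13 (6.20 and 7.24), whereas Col1a1 (9.71 and 9.18), Col4a2 (10.53 and 10.02) and Col4a1 (11.03 and 10.62) had values of -0.54 ± 0.08, -0.51 ± 0.08 and -0.41 ± 0.04, and the median of 15 was -0.07. Timp1, the inhibitor of matrix metalloproteinases, read 6.66 and 8.58, higher by 1.92 ± 0.09, and the elastin gene Eln 7.39 and 6.81, at -0.59 ± 0.11. The tendon markers Chad and Scx had values of -0.64 ± 0.10 and 0.74 ± 0.15.

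Genes lower in the KO muscle were fewer, and the largest differences were again on the chromosome of Dnm3. Cops8, a subunit of the COP9 signalosome, read 10.42 on the WT array and was not detected on the KO array, at least 37.9-fold lower. Rpe, the epimerase of the pentose phosphate route, read 8.38 and was not detected on the KO array, at least 9.22-fold lower. Thap4 (9.38 and 7.43), the importin Ipo9 (8.59 and 6.74) and Rgl1, an activator of Ral proteins (7.40 and 6.25), had values of -1.95 ± 0.09, -1.85 ± 0.10 and -1.14 ± 0.14. With Gin1, detected on the WT array alone and at least 1.99-fold lower, these 6 form a list chosen from these same arrays, so their direction is no independent finding. Their values in the P14 and adult hearts were also below 0, with medians of -1.87 and -2.64. Of all 45 lower genes, 9 lie on that chromosome, as do 479 (5.24%) of the 9141 genes kept and 14 (6.22%) of the 225 higher genes. The further 3 are Neu2, a sialidase of muscle cells (10.92 and 9.30, at -1.62 ± 0.06), Ramp1, a partner of the CGRP receptor (10.62 and 9.47, at -1.15 ± 0.06), and Ppp1r12b, detected on the WT array alone. Neu2 and Ramp1 did not share the direction in both hearts, with 0.44 and 0.70 at P14 and -0.14 and 0.08 in the adult. They lie 400 and 364 protein-coding genes from Dnm3 in the gene table of GRCm38.p6. The 6 genes of the list lie at like distances, from 73 (Rgl1) to 556 (Rpe), with Cops8 at 371.

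**Figure D4:**
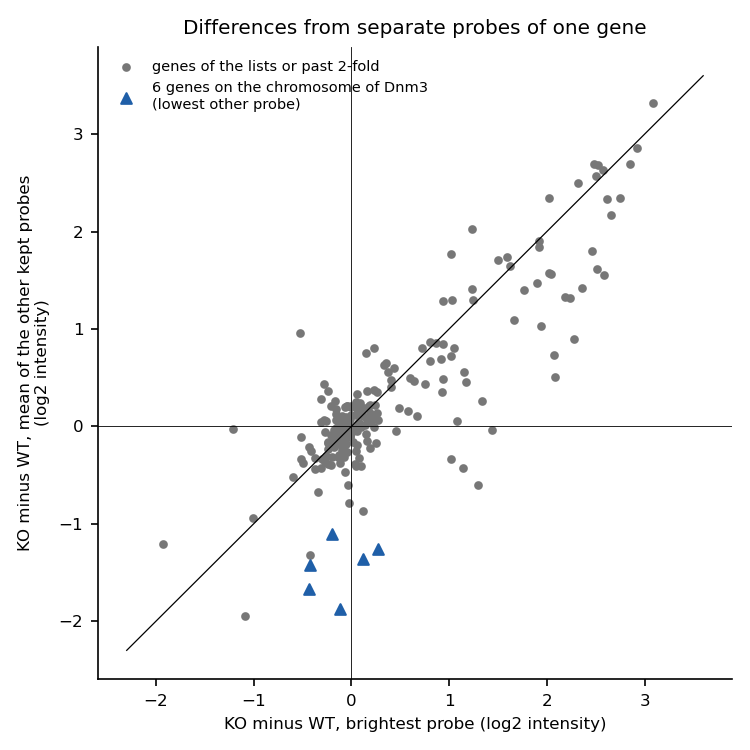
Difference between KO and WT tibialis anterior by the brightest probe of a gene (horizontal axis, log2 intensity) against the mean of its other kept probes (vertical axis, log2 intensity), for genes of the lists or past 2-fold that have other probes. Most points follow the diagonal, and the blue triangles, 6 genes on the chromosome of Dnm3 plotted at their lowest other probe, lie at -1.10 or below while their brightest probes lie between -0.43 and 0.27. These 6 were picked for a probe at least 2-fold lower beside a brightest probe that was not, so their place follows from the choice. In all 23 genes met that rule, and those on other chromosomes are not drawn as triangles.

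Elsewhere in the genome the lowest values among genes detected on both arrays were those of Retnla, Hyi (8.04 and 6.65, at -1.39 ± 0.14), 2610035D17Rik (at -1.37 ± 0.21) and Ptcd3 (8.29 and 6.95, at -1.35 ± 0.15). Ptcd3, Gadd45gip1 (6.94 and 5.63, at -1.31 ± 0.17) and Mrpl35 (7.40 and 6.13, at -1.28 ± 0.12) are proteins of the mitochondrial ribosome. In the adult heart they had values of -1.72, -0.81 and -1.29, and at P14 of -0.07, -0.29 and 0.42. The matrix protein Spon2 read 7.55 and 6.27, at -1.28 ± 0.10. Rnase2a and Ear3, ribonucleases of eosinophils, were detected on the WT array alone and were at least 2.60-fold and 2.23-fold lower in the KO. Dhdds was at least 2.17-fold lower by its brightest probe, with -0.03 from its other probe. Of the 45 lower genes, 7 of 38 detected at P14 and 11 of 40 detected in the adult heart were at least 2-fold lower there too. Among all genes of the muscle set these shares were 45 of 8613 (0.522%) and 36 of 8667 (0.415%).

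Published targets of miR-214 lay close to even in this muscle. Of 10 detected targets studied in muscle and development, 4 were above 0, near the share over all genes (46.1%). Their median was -0.11, with a range of -0.22 to 0.38 and none past 2-fold. Ezh2, the histone methyltransferase that silences muscle genes, read 6.56 and 6.42, at -0.14 ± 0.11, and Nras, a small GTPase, 10.21 and 10.22, at 0.01 ± 0.06. Xbp1, a transcription factor of the unfolded protein response, read 10.49 and 10.87 and was the highest at 0.38 ± 0.05. The beta-catenin gene Ctnnb1 had a value of -0.09 ± 0.06. Of the targets studied in the heart, the sodium-calcium exchanger Slc8a1 had -0.32 ± 0.12, the cell death activator Bcl2l11 -0.10 ± 0.14, the calcium-dependent kinase Camk2d 0.11 ± 0.14 and Ppif, cyclophilin D, 0.18 ± 0.04. The host RNA Dnm3os read 6.46 and 6.22, at -0.24 ± 0.13, and Dnm3 was detected on neither array. No source ties the Dnm3os probe to the deleted part, so it checks nothing about the knockout.

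**Figure D5:**
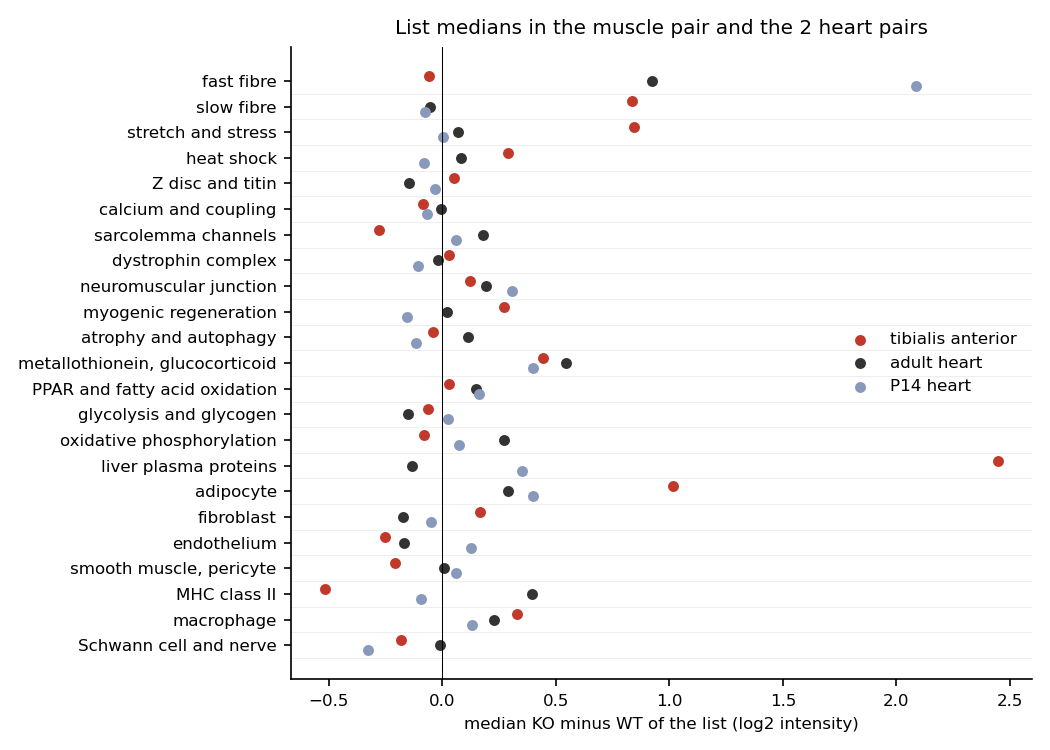
Median difference between KO and WT (horizontal axis, log2 intensity) of each gene list with at least 5 detected members in all 3 pairs, in tibialis anterior (red), adult heart (black) and P14 heart (blue grey), 1 array per genotype in each. The slow fibre and stretch medians are 0.83 and 0.85 in muscle and between -0.08 and 0.07 in the hearts, the liver plasma protein median is 2.45 in muscle, and MHC class II is -0.52 in muscle and 0.39 in the adult heart.

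Set beside the hearts, several lists had medians of other sizes in the muscle. The stretch list had 0.85 in muscle, 0.00 at P14 and 0.07 in the adult heart, and the heat shock list 0.29, -0.08 and 0.08. Fast fibre genes had -0.06 in muscle but 2.09 at P14 (13 detected) and 0.92 in the adult heart (7 detected), where they are not normally expressed. Oxidative phosphorylation had -0.08, 0.07 and 0.27. These differences between tissues were not tested, and the arrays of each pair are single pools.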

How the data were processed

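Total RNA of tibialis anterior and heart was labelled and hybridised to Illumina bead arrays, with cDNA of 3 mice pooled per array and 1 array in each of 6 groups, per the labels. Per the file headers, the deposited scanner table gives the average intensity of each probe, the standard error of that signal over beads, the bead count and the detection p-value, with no background subtraction or normalization between arrays. The authors also deposited processed intensities of the same arrays, in the same rank order as the scanner intensity (rank correlation 1) with array medians of 54.3 to 54.4. They were used as an alternative. Their scale is linear by this comparison, with software not given in the sources used here. All columns were matched to samples, leaving 0 over.

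Background was corrected by normexp in limma 3.58.1 under R 4.3.3 (controls inferred from detection p, offset 16), followed by quantile normalization of all 6 arrays and log2. Tables and plots used Python 3.11.15, numpy 2.4.6, pandas 2.3.3 and matplotlib 3.10.9. The platform annotation names 1 gene for 34885 probes, several for 18 and none for 10378. Of the 9141 genes kept, 9132 matched the RefSeq gene table (GRCm38.p6), which changed 0 symbols. The bead error of a difference combines the standard errors of both arrays on the log2 scale. The steps were tested on simulated data.

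Genes named are the 12 highest and 12 lowest differences among genes detected on both arrays, the 6 largest bounds of at least 2-fold per direction among genes detected on 1, up to 6 members with the largest differences and up to 3 defining members of each list, the miR-214 targets and locus, sex-linked genes and the list on the chromosome of Dnm3, and the 3 highest and 3 lowest unnamed probes. Further list members named beside these were chosen after their values were seen. Members and lists were chosen with earlier results of these data known. With 1 array per group the number of arrays limits precision and no test was made.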

Additional observations from a re-analysis of the deposited data

Results flagged for a closer look

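For the results here the muscle pair and both heart pairs lay on opposite sides of 0, each gene by more than 2 bead errors, and the difference was not tested. Tnnc1 had a difference of 1.84 in muscle, -0.28 in the P14 heart and -0.17 in the adult heart. Tubb6 had 2.05, -0.50 and -0.16 in the same order. The heart levels of Tnnc1, 15.07 and 14.79 at P14 and 15.07 and 14.90 in the adult, are near the top of the intensity range. The scale may be compressed there. Chac1 had -1.09 in muscle against 0.93 and 0.49 in the hearts. The slow fibre list had medians of 0.83, -0.08 and -0.05, and the sarcolemma channel list of -0.28, 0.06 and 0.18.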

How the results depend on the processing

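No paired analysis was possible because each group has 1 array and no test was made. The counts of genes at least 2-fold higher and lower, 225 and 45, were 117 and 13 without background correction, 110 and 13 with an offset of 50, 120 and 13 with the authors' processed values, 101 and 21 over genes detected on both arrays and 148 and 27 by lower bounds. Median centring gave 185 and 29, and quantile normalization over the 2 muscle arrays 179 and 31. The other alternatives for these counts gave 180 to 225 higher and 43 to 45 lower. The cause of the lower counts under other background settings and the authors' values was not tested. Of 410 list medians under the alternatives, 394 stayed within the interval of the bead error and 16 moved. The medians of 4 lists, all close to 0, took both signs over the alternatives: atrophy and autophagy (-0.05 to 0.08), amino acid stress (-0.02 to 0.08), immediate early genes (-0.03 to 0.09) and PPAR and fatty acid oxidation (-0.02 to 0.05). The liver plasma protein, apolipoprotein and enzyme medians were 1.89, 2.08 and 1.09 without background correction, and the enzyme median 0.67 without the detection filter. The adipocyte median was 0.71, 0.23 and 0.09 without background correction, over genes detected on both arrays and without the filter. Slow fibre medians ran from 0.72 to 0.93 and stretch medians from 0.80 to 0.85. Of 1038 values of named genes 244 moved, and 1 gene changed sign, Hdgf, which had 0.06 by its brightest probe and values from -0.13 to 0.10 under the alternatives. No alternative can stand in for a second pool of mice.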

Other observations

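Genes known from kidney, stomach and pancreas also read higher on the KO muscle array, all chosen after their values were seen. The kidney phosphate transporter Slc34a1 read 5.40 and 7.29, higher by 1.89 ± 0.14, the amino acid transporter Slc6a19 was at least 3.38-fold, the kidney androgen-regulated gene Kap at least 2.19-fold and uromodulin, Umod, at least 1.60-fold higher. The stomach genes Pgc, a pepsinogen, and Gkn1, a gastrokine, were higher by 1.96 ± 0.14 (7.56 on the KO array) and 1.33 ± 0.18 (5.43 and 6.76). Colipase, Clps, and the phospholipase Pla2g1b of pancreatic juice were at least 2.86-fold and 1.40-fold higher. None of these 8 genes was detected on any of the 4 heart arrays. Also, none of the 6 named pancreas and gut markers with a probe was detected on a muscle array.

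Some genes on the chromosome of Dnm3 had a low probe beside a brightest probe that was not 2-fold lower. Among genes whose brightest probe was not 2-fold lower, 23 had another kept probe that was, and 6 of them lie on that chromosome. Insig2, a regulator of sterol synthesis, read 9.93 and 8.05 by one probe, at -1.88 ± 0.08, while the other gave -0.11 ± 0.06. Phlda3, an inhibitor of Akt signalling, had -1.67 ± 0.05 and -0.43 ± 0.07. Kdm5b, Mcm6, Rab7b and Steap3 had low probes at -1.26, -1.42, -1.36 and -1.10 beside brightest probes at 0.27, -0.42, 0.12 and -0.20. The low probes of Kdm5b, Mcm6 and Rab7b were not detected on the KO array, so these 3 values are not bounds. The low probes of these 6 genes were also below 0 in both hearts, at -0.75 to -2.65. Mcm6 had a further low probe, at -1.21 in muscle. Its brightest probe had -0.90 in the P14 heart and -1.59 in the adult heart. At the level of named probes, 17 of 73 (23.3%) past 2-fold downwards lie on the chromosome, 22 of 286 (7.69%) upwards and 749 of 13709 (5.46%) of all kept. The strains behind the mixed background are not given in the labels, and the sequences of the probes were not used here.

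Some probes with no gene name also differed. ILMN_1228909 was detected on the KO muscle array alone, at least 6.66-fold higher, and ILMN_1245845 on the WT array alone, at least 7.29-fold lower in the KO. ILMN_1242107 read 6.05 and 9.57 in muscle, 5.50 and 10.42 in the adult heart, and 10.19 and 5.80 in the P14 heart. ILMN_2689785 was higher by 2.99 ± 0.18, and ILMN_2925653 and ILMN_2731735 had values of -1.58 ± 0.11 and -1.45 ± 0.15.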
